A study of Rattus norvegicus with 10 samples.

Results

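Moderate calorie restriction (CR) was compared with mild CR after 1 week in RNA from the rat brain, which the methods of the study place in the hypothalamus area and the labels call brain. The comparison used 4 of the 10 arrays of the series, put on their sides by their labels. The 1 week control array was left out because it stands apart technically. The 1 month columns were left out because their rows do not follow the probe set identifiers. The mild side held the 5% CR and 10% CR arrays, and the moderate side the 20% CR and 30% CR arrays. All 4 groups were male Wistar rats (an outbred laboratory strain) aged 6 weeks at the start, kept singly on the purified AIN-93G diet, given a fixed share of the intake of freely fed rats for 1 week and fasted for 16 h before the tissue was taken. RNA of 5 rats was pooled for each group and hybridised to 1 Affymetrix array. The 2 arrays on a side are therefore 2 pools at 2 different levels, not replicates of a dose, and every p-value measures the spread between pools. The question the comparison answers is whether the brain of rats on 20 or 30% restriction differed from that of rats on 5 or 10%. It makes no use of the unrestricted control array, whose rats were given the full intake recorded in freely fed rats.

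The hypothalamus senses energy stores and adjusts feeding, heat production and pituitary hormones. When food is short, neurons that make neuropeptide Y and agouti-related peptide drive feeding, neurons that make pro-opiomelanocortin and its melanocortin products restrain it, and corticotropin-releasing hormone acts on the pituitary-adrenal axis, which releases glucocorticoids. Glucocorticoids enter cells, bind the glucocorticoid receptor and raise the transcription of a well-known set of target genes in many tissues, the brain included.

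The arrays were alike in scale but not in all technical measures. The 4 arrays had the same trimmed mean signal of 158.8 and median signals between 59.1 and 63.5. The share of signals under 10, the range where MAS5 signals are least reliable, was 11.71% at 5% CR, 11.98% at 10% CR, 12.87% at 20% CR and 14.35% at 30% CR, so it was higher on both moderate arrays. In the 1 week control array it was 24.02%. The ratio of the 3' to the 5' Gapdh probe set, a sign of RNA integrity, overlapped between the sides (log2 0.51 and 0.74 mild, 0.79 and 0.40 moderate). The same ratio for beta-actin overlapped too, but was larger than that of Gapdh on all 4 arrays (log2 2.31 and 2.8 mild, 2.46 and 2.19 moderate). The median of the 24 spiked poly-A control probe sets also overlapped (27.8 and 32.4 mild, 36.5 and 31.6 moderate). Over the probe sets kept, log2 signals of the 2 mild arrays correlated at 0.963 and those of the 2 moderate arrays at 0.961, and the pairs that crossed the sides correlated at 0.959 to 0.965. Arrays on the same side were thus no more alike than arrays on different sides. Of the peptides that mark the hypothalamus area named in the methods, the transcripts of melanin-concentrating hormone (Pmch) and oxytocin (Oxt) reached signals of 8942.1 and 3718. Pomc did not pass the filter on low signals, and no probe set was found here for Agrp.

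No probe set passed the test between moderate and mild restriction. Among the 15518 probe sets kept, whose signal averaged over the 4 arrays exceeded the array median on the log2 scale, limma's test gave 0 probe sets (0%) with a Benjamini-Hochberg adjusted p under 0.05, and the smallest adjusted p was 0.0658. At an unadjusted limma p under 0.05 there were 451 higher in moderate (2.91%) and 348 lower (2.24%), 799 in all. An exact two-sided permutation test of 2 arrays against 2 cannot give a p below 0.333, so no single gene could pass one. The median difference over all probe sets was 0 on the log2 scale, and 90% of the differences lay between -0.47 and 0.46. The 95% interval of a difference reached 0.48 on the log2 scale, or 1.40-fold, to either side in the median, and smaller differences could not be resolved with this number of arrays. The count was higher under some settings and lower under none: 1 probe set (Fam168b) passed after cyclic loess normalization or with robust eBayes, and without the 5% or the 10% array the 3 arrays left gave 11 and 12 probe sets.

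Since the test made no calls, genes are described below by whether the sides overlapped. A probe set is called separated where both moderate arrays were above both mild arrays, or both below, and the mean difference was at least 1.5-fold. Non-overlap alone was found for 2695 probe sets in the higher direction (17.4%) and 2595 in the lower (16.7%), and separation for 349 (2.25%) and 326 (2.1%). Arrays that do not differ by side also give non-overlap in some probe sets, so these counts alone show no effect of the level. Taking the brightest probe set of each of the 9471 named genes, 1709 did not overlap and were higher (18%), 1533 did not overlap and were lower (16.2%), 183 were separated higher (1.93%) and 150 separated lower (1.58%). The last 2 shares are the ones to set beside each count of separated list members below. Most of the separated probe sets were dim. Their median signal was 84.6 for the higher and 77.5 for the lower, against 179.2 for all probe sets kept. Of the 2990 probe sets with a mean signal above 500, 12 were separated higher and 1 lower.

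**Figure D1:**
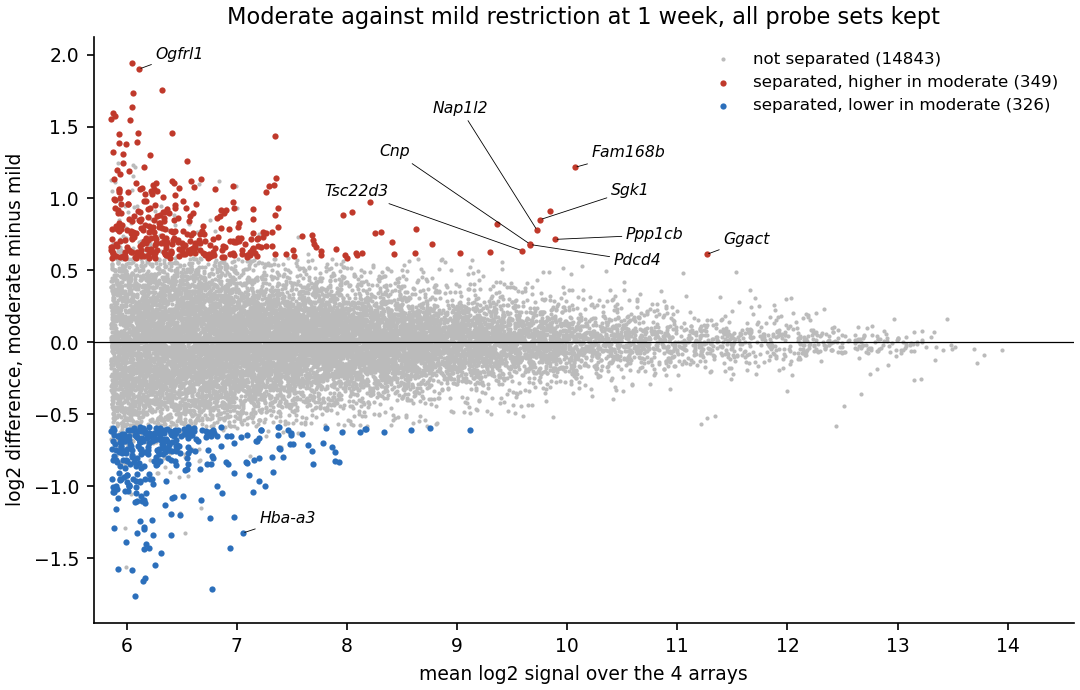
Log2 difference (moderate minus mild) against the mean log2 signal of the 4 arrays, 1 point per probe set kept. The 349 red and 326 blue points are the separated probe sets, which crowd at the dim end, and the named points are the bright separated genes with Ogfrl1 and Hba-a3 added.

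Fam168b, which encodes a neuronal membrane protein that restrains neurite outgrowth, stood first in the test. Its signal was 707.1 at 5% CR and 704.4 at 10% CR, against 1527 at 20% CR and 1761.3 at 30% CR. The moderate arrays were 2.32-fold higher on average, a log2 difference of 1.22 ± 0.11 (SE) with a limma adjusted p of 0.0658 and of 0.0416 to 0.89 under the other scaling, filter and variance settings. The 2 mild pools were nearly equal, and the unrestricted control array lay between the sides at 1136. As RNA of whole tissue was measured, fewer cells of a type and less RNA per cell cannot be told apart for this or any other gene.

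The other genes with the widest gap in the higher direction were mostly dim on the mild arrays. Ogfrl1, an opioid growth factor receptor-like gene, had signals of 47.5 and 27 on the 5% and 10% arrays and 156.3 and 114.2 on the 20% and 30% arrays, a log2 difference of 1.90 ± 0.40. Mertk, a receptor with which phagocytes and astrocytes clear cell debris, had 70.8 and 83.8 mild and 158.1 and 165.2 moderate (1.07 ± 0.24). Tp53bp2, which encodes a partner of the p53 tumour suppressor, was brighter, with 199.5 and 188.5 mild and 350.8 and 375.3 moderate (0.90 ± 0.15, limma adjusted p = 0.761). In each of these the sides were well apart, yet none passed the adjustment over 15518 probe sets. Shroom3, an actin-binding gene of epithelial shape change, differed by 1.58, Wiz, a zinc finger partner of histone methyltransferases, by 1.12, and Ubap2l, a gene of stress granules, by 1.07 on the log2 scale. Stac2, an adaptor of calcium channels, differed by 0.96 and Kyat1, a kynurenine aminotransferase, by 0.90. P3r3urf (1.64), Acy3 (1.38) and Armc7 (1.76) complete the 12 genes that the rule named in this direction, all of them dim. The mild pools of Armc7 were far apart (24.6 and 77.3, against 158.1 and 137.4 moderate), and its difference was 0.93 without the 5% array and 2.58 without the 10% array. The limma adjusted p was 0.933 for the genes of this paragraph other than Tp53bp2.

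In the lower direction the widest gap belonged to Hba-a3, an alpha haemoglobin gene, described with the other haemoglobin probe sets below. Ntsr1, the receptor through which the peptide neurotensin lowers food intake and body temperature, had signals of 122.2 and 128.4 on the mild arrays and 58 and 60.9 on the moderate ones. Its log2 difference was -1.08 ± 0.28, so the moderate signal was 2.11-fold lower. Cyp19a1, the aromatase that makes oestrogen and is active in hypothalamic neurons, had 86.5 and 88.7 mild and 49.5 and 51.2 moderate (-0.80 ± 0.33). Both genes had tight pairs on each side but low signals, and the lowest mean signal that passed the filter was 58. Triobp, an actin-bundling gene, was the brightest of this group with 222.9 and 228.9 mild and 123.4 and 137.6 moderate (-0.79 ± 0.19). Osbpl1a, of a family of oxysterol-binding proteins, differed by -1.46 on the log2 scale (-0.87 without the 20% array) and Tbc1d12 by -1.57. Leng8 (-1.43), Apobr (-1.34), Lrrc27 (-1.33), Mdn1 (-0.95), Spn (-0.84) and Pcnx3 (-0.79) were the others that the rule named. A second probe set of Leng8 pointed the other way, with a log2 difference of 0.31. The limma adjusted p was 0.933 for the genes of this paragraph other than Hba-a3.

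**Figure D2:**
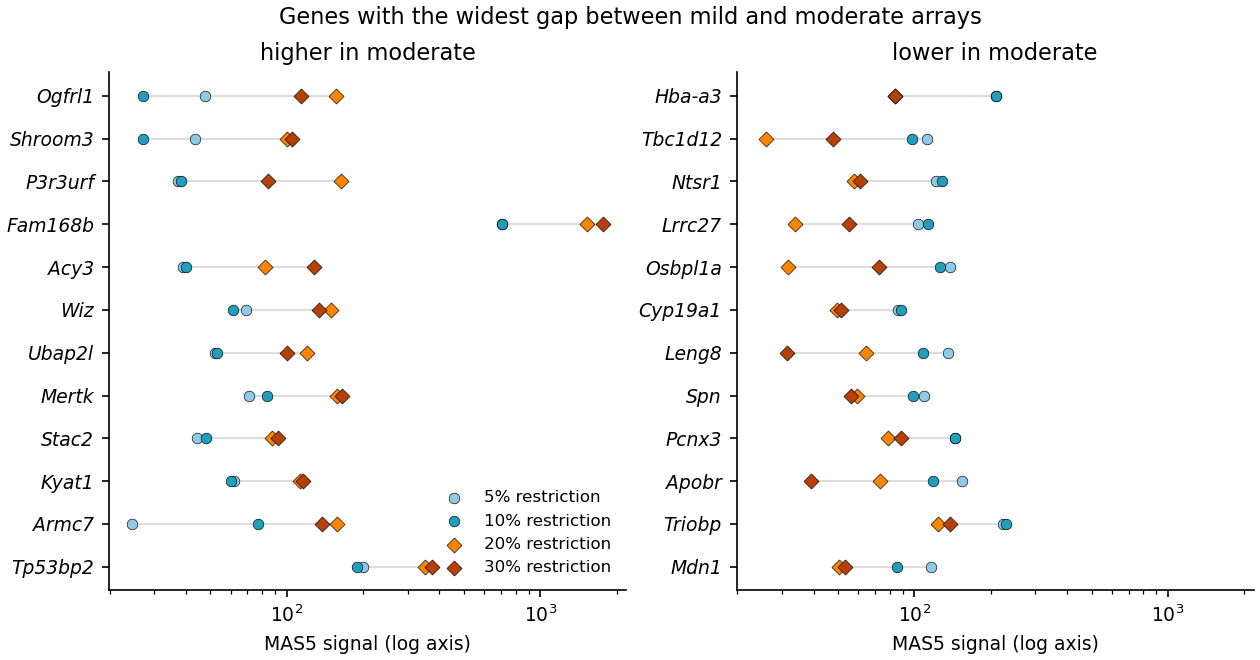
MAS5 signal (log axis) of the 12 genes with the widest gap in each direction, 1 point per array, circles for 5 and 10% and diamonds for 20 and 30% CR. No circle and diamond overlap in a row because the genes were chosen for that, and Fam168b alone lies above 500.

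Bright genes are measured with less error, and the separated genes with a mean signal above 500 were few. These were taken after their values were seen, except Fam168b, Tsc22d3 and Sgk1, which other rules name too. Nap1l2, a nucleosome assembly gene of neurons, had 630.7 and 662.7 on the mild arrays and 1168.4 and 1054.9 on the moderate ones (log2 difference 0.78 ± 0.11, limma adjusted p = 0.576). Pdcd4, an inhibitor of translation initiation, had 662.5 and 622.8 against 1099.3 and 963.1 (0.68 ± 0.12). Ppp1cb, a catalytic subunit of protein phosphatase 1, had 833.5 and 658.8 against 1264.1 and 1171.9 (0.72 ± 0.14). In all 3 the gap between the sides was wider than the difference between the pools of either side. Ggact, which encodes gamma-glutamylamine cyclotransferase, was the brightest, with 1936.2 and 2054.9 mild and 3345.3 and 2776.3 moderate (0.61 ± 0.12). For Cnp, a myelin enzyme, the separated probe set (634 and 643.2 mild, 773.2 and 1361.3 moderate) was not the brightest of the gene.

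Genes that respond to glucocorticoids were the list with the most separated members. Of 18 listed, 17 were found on the array and 14 passed the filter. Of these 14, 9 did not overlap and were higher on the moderate arrays, against 18% of all named genes, and 0 did not overlap and were lower, against 16.2%. Separation was reached by 3 of 14 in the higher direction and 0 in the lower, against 1.93% and 1.58% of all named genes. The median log2 difference of the 14 was 0.33, with a range of -0.22 to 0.85, whereas the median over all named genes was 0.0036. No member passed the test after adjustment.

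Sgk1, a kinase that glucocorticoids induce and that acts on ion channels, had the largest difference. Its signal was 512.1 at 5% CR, 807.5 at 10% CR, 939.5 at 20% CR and 1436.3 at 30% CR, so it was higher at each level than at the one before. The log2 difference of the sides was 0.85 ± 0.25 (limma adjusted p = 0.933), and the mild pools themselves differed by more than the 10% and 20% pools did. It was 0.53 without the 5% array and 0.55 without the 30% array, and without the 10% array it was 1.18 and passed (limma adjusted p = 0.0155). Pdk4, which blocks the entry of pyruvate into the citrate cycle and so spares glucose in fasting, followed the same order with 92.4, 122.3, 152.1 and 191.9 (0.68 ± 0.24). Tsc22d3, which encodes the glucocorticoid-induced leucine zipper, had 630.5 and 604 on the mild arrays and 982.1 and 938.7 on the moderate ones. Here the pools of a side were nearly equal and the sides were 1.56-fold apart, a log2 difference of 0.64 ± 0.11 (limma adjusted p = 0.761, rank 6 of all probe sets). On the unrestricted control array, which stands apart technically, Sgk1 read 961.6, Tsc22d3 779.7 and Pdk4 122.6, each within the range of the 4 restricted arrays.

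Among the other members, Sult1a1, a sulfotransferase, had 572.7, 566.1, 692.2 and 953.2 from 5 to 30% CR (0.51 ± 0.16, and 0.28 without the 30% array), and Errfi1, a brake on epidermal growth factor receptors, had 199.8, 191, 230.3 and 277.1. Ddit4, an inhibitor of the growth regulator mTOR, had 405.5 and 363.1 mild and 419.7 and 522.2 moderate (0.29 ± 0.15). In all 3 the highest signal was that of the 30% array. Mt2A (a metallothionein), Klf9 (a transcription factor) and Plin4 (a lipid droplet gene) did not overlap either and were higher, by 0.21 to 0.48 on the log2 scale. The remaining 5 overlapped. Fkbp5, a chaperone partner of the receptor and a widely used marker of its activity, had 209.6 and 238.9 mild and 241 and 231.4 moderate, and Per1, a clock gene with a glucocorticoid response, had 67.5 and 91.6 against 84.6 and 128.6. Nfkbia, Cdkn1a and Arrdc2 completed the 14, and Arrdc2 was the lowest at -0.22. Mt1, Hif3a and Map3k6 did not pass the filter.

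By array, the median deviation of the 14 genes from their own mean over the 4 arrays was -0.24 at 5% CR, -0.12 at 10% CR, 0.02 at 20% CR and 0.31 at 30% CR, on the log2 scale. The list median thus rested on the ends of the range: it was 0.13 without the 30% array, 0.19 without the 5% array, 0.36 without the 10% array and 0.52 without the 20% array. Other scalings, filters and choices of probe set gave 0.28 to 0.35. The share of signals under 10 was ordered in the same way over the 4 arrays, and its part in the result was not tested.

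**Figure D3:**
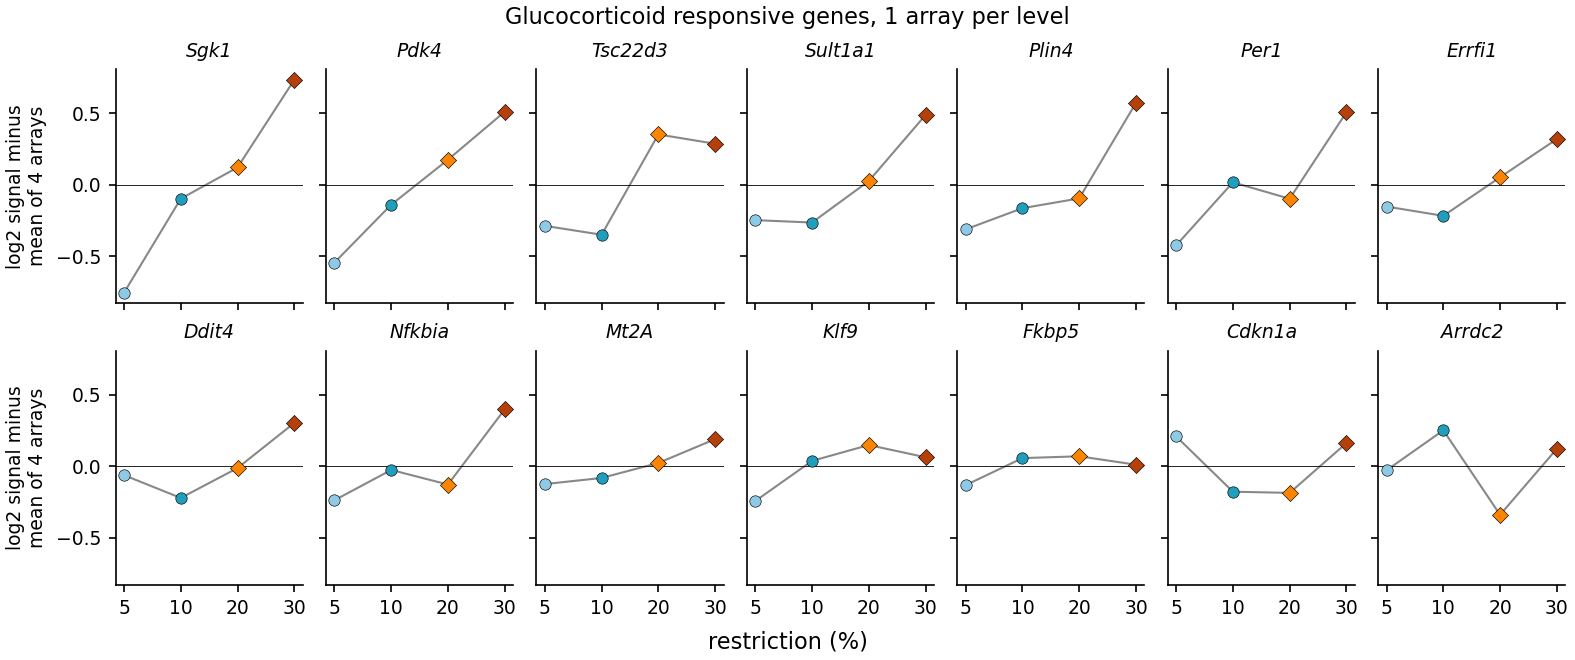
Log2 signal minus the mean of the 4 arrays for each of the 14 glucocorticoid responsive genes that passed the filter, against the CR level in percent, 1 array per level. Circles are mild and diamonds moderate, and the 30% array is the highest or second highest of the 4 in all but Fkbp5.

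The promoters of the list were searched because 9 of its 14 measured members did not overlap and were higher. The windows (RefSeq, GRCr8 assembly, 250 bases before to 50 after each gene's start) were searched on both strands for AGAACA, the half-site bound by the glucocorticoid receptor, and for the full element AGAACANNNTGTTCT, which contains the half-site on each strand. The half-site was in 6923 of 33469 windows (20.7%) and the full element in 5 (0.0149%). All 14 measured genes had a window, 2 of them with a half-site (Sult1a1 and, in 1 of several windows, Plin4) and 0 with the full element. These are counts of genes, some with several windows, whereas 20.7% is a share of windows, so the 2 are not directly comparable. A match is only a description, and a window without one shows only that these letters are not in it. The windows of Pdk4, separated between the sides and with 1 listed start, and of Sult1a1, with its half-site at position -89 from the start in capitals, are shown as an example of each kind.
Pdk4, chr4:34568280-34568579, minus strand: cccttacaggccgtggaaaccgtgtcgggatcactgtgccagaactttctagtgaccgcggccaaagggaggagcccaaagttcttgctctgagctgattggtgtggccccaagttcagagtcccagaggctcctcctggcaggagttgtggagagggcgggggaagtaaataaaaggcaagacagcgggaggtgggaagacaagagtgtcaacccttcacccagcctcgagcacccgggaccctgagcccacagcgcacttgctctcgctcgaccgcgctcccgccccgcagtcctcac
Sult1a1, chr1:190706063-190706362, minus strand: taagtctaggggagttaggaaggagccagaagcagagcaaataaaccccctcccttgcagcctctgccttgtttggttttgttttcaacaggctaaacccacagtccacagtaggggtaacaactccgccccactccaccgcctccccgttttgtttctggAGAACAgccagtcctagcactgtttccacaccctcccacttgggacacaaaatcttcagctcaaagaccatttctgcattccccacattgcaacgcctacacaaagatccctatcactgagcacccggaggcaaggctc

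The peptides that drive feeding were close to level between moderate and mild restriction. Npy, the transcript of neuropeptide Y, had signals of 1884.2 and 2034.6 on the mild arrays and 1758.6 and 2000.8 on the moderate ones, a log2 difference of -0.06 with a 95% interval of -0.31 to 0.19. Pmch, which encodes melanin-concentrating hormone, had 8130.4 and 8942.1 against 8871.1 and 8646.2 (0.04, interval -0.18 to 0.26). The sides overlapped for both, and their intervals are among the narrower ones of the comparison. Hcrt, the orexin precursor that keeps animals awake and seeking food, differed by -0.03 and galanin (Gal) by 0.03. Of 9 measured genes in the list of feeding-promoting peptides and receptors, 0 were separated, and the log2 differences ran from -0.42 to 0.28 with a median of 0.03. In this list 2 did not overlap and were higher and 0 were lower (18% and 16.2% of all named genes). One of the 2 was Hcrtr2, an orexin receptor (117.1 and 116 mild, 143.3 and 140.5 moderate; 0.28 ± 0.21).

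The list of peptides that restrain feeding and their receptors centred near no difference too, but its members varied. Cartpt, which encodes a satiety peptide of arcuate and other hypothalamic neurons, had 2980.7 and 3380 on the mild and 2982.6 and 2978.4 on the moderate arrays, a log2 difference of -0.09 with a 95% interval of -0.32 to 0.14. Trh, the hormone that starts the thyroid axis, had 165.9 and 140.1 against 166.2 and 202.1 (0.27 ± 0.21). Crh, which starts the adrenal axis, was dim, with 65.6 and 61.9 against 79.5 and 52.2 and an interval of -0.84 to 0.87, which is too wide to show whether it differed. The 8 measured genes of this list had a median of 0.01 and a range of -0.75 to 0.27. Of these 8, 1 did not overlap and was higher and 0 were lower (18% and 16.2% of all named genes), and 0 were separated.

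Among the neurosecretory peptides some did not overlap in either direction. Oxt, the oxytocin transcript of the neurons that project to the posterior pituitary, had 2906.5 and 2163.5 mild and 3718 and 3333.8 moderate, a log2 difference of 0.49 ± 0.14 that was 0.28 without the 10% array. Avp, the vasopressin transcript of neighbouring cells, had 3451.6 and 2847.2 against 3995.5 and 3498.6 (0.25 ± 0.12). Both transcripts were lowest on the 10% array and highest on the 20% array. Tac3, the neurokinin B transcript of arcuate neurons that govern reproduction, had 281.2 and 227.9 mild and 162 and 192.2 moderate (-0.52 ± 0.19), and Penk, which encodes enkephalins, had 1191.9 and 1351.1 against 1034.1 and 1035.3 (-0.29 ± 0.11). Ghrh, which stimulates growth hormone release, had 133.8 and 103.7 against 85.3 and 88.7. Of the 15 peptides measured in this list, 5 did not overlap and were higher and 3 were lower, where the shares of all named genes were 18% and 16.2%. Of these peptides 0 were separated, and the limma adjusted p was 0.933 to 0.936 for those named here.

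Most haemoglobin probe sets read lower on the moderate arrays. Of 7 kept, 6 did not overlap and were lower and 0 were higher (16.7% and 17.4% of all probe sets), but 5 of the 7 carry several symbols of near-identical gene copies and are not independent. On the brightest the sides nearly met, with 9799.5 on the 5% and 9784.1 on the 20% array. The next brightest had 9355.7 and 9271.2 on these arrays. Hba-a3 had 210.3 and 210.6 on the mild arrays and 83.8 and 84.2 on the moderate ones, a log2 difference of -1.33 ± 0.21 (limma adjusted p = 0.761). Hbb, the beta chain, had 6892.5 and 7934.7 against 6238.7 and 5312.3 (-0.36 ± 0.12), and the control array read 5044.2. The other marker of red cells that was measured, Alas2 of haem synthesis, overlapped (54.7 and 96.3 against 72.4 and 57.1). The median of these 2 markers, -0.27, was -0.01 without the 10% array and -0.52 without the 5% array.

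Pituitary markers were also unequal. Tshb, the thyrotropin beta chain, had 126.9 and 211.8 on the mild arrays and 264.6 and 262.5 on the moderate ones (0.68 ± 0.25), and Lhb, the luteinising hormone beta chain, had 83.6 and 83.6 against 128.6 and 121.8 (0.58 ± 0.25). Cga, the alpha chain they share, had 1713.9 and 1931.6 against 2332.9 and 1998.2 (0.25 ± 0.12). Of 12 pituitary markers on the array 4 were measured, with summed signals of 3183 and 3458 mild and 3937 and 3683 moderate. Of these 4, 3 did not overlap and were higher and 0 were lower (18% and 16.2% of all named genes). The lowest log2 difference of the 4 was 0.01, so the list was not higher throughout. The median log2 difference of the 4 was 0.41, and it was 0.24 without the 5% array, 0.17 without the 10% array and 0.25 with the filter at the 75th percentile. Tshb alone had 0.32 without the 5% array and 1.05 without the 10% array. The defining hormones Gh1 and Prl did not pass the filter. The part of blood and pituitary tissue in the results above was not tested.

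**Figure D4:**
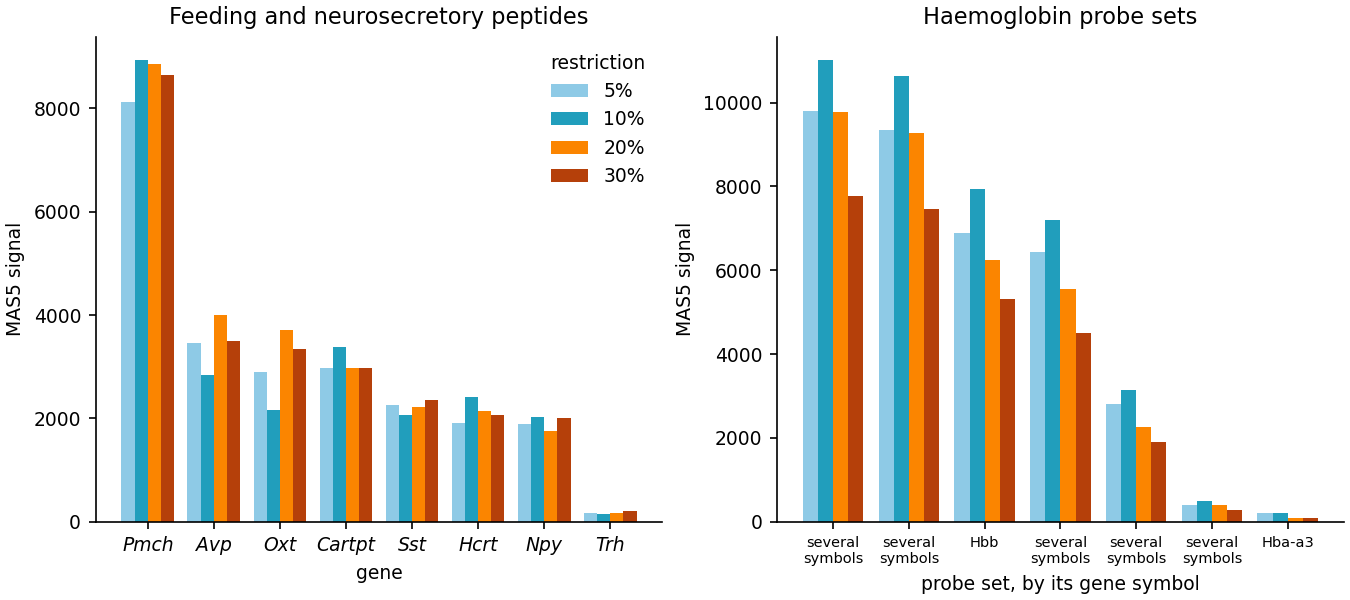
MAS5 signal by array for 8 hypothalamic peptides (left) and the 7 haemoglobin probe sets kept (right), 1 bar per CR level. The mild and moderate bars of Pmch, Hcrt, Npy and Cartpt overlap in height, while 6 of the 7 haemoglobin probe sets have both moderate bars below both mild bars. For the tallest of these the margin is very narrow.

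In the nutrient-sensing list, which holds the mTOR complexes, their regulators and AMP-activated kinase, 9 of 18 measured genes did not overlap and were lower on the moderate arrays (16.2% of all named genes were), and 2 were higher (18%). The differences were small, with a median of -0.11 on the log2 scale. Rictor, a core subunit of mTOR complex 2, had 346.9 and 363.6 mild and 256.2 and 297 moderate (-0.36 ± 0.15). Rheb, the small GTPase that activates mTOR, had 2086.5 and 1932.5 against 1762.4 and 1769.2 (-0.19 ± 0.10), and Tsc2, which switches Rheb off, had 497.7 and 437.7 against 417.6 and 418.6 (-0.16 ± 0.13). The activator and its inhibitor thus lay on the same side. Prkaa2, a catalytic subunit of AMP-activated kinase, had 156.1 and 133.1 against 106.1 and 106.4 (-0.44 ± 0.22), and Prkab1, a regulatory subunit of it, 132.7 and 142.3 against 111.3 and 81.3 (-0.53 ± 0.26). Mtor itself had 316.8 and 321.4 against 295 and 318.9.

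The only separated member was Eif4ebp1, the translation repressor that mTOR inactivates, with 240.7 and 169.1 against 163.2 and 34.5. Its log2 difference of -1.43 ± 0.61 rested on the 30% array: without it the difference was -0.31. The median of this list was 0.03 when only probe sets above the 75th percentile were kept, and -0.06 and -0.07 without the 10% and the 20% array. In the insulin, IGF and FoxO list, 0 of 12 were separated (1.93% of all named genes were higher and 1.58% lower). Irs2, an adaptor of the insulin receptor, differed by -0.07.

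Among the immediate early genes, whose transcripts follow neuronal activity within minutes, Fos was separated with 88.4 and 63.2 mild and 154.4 and 96.1 moderate (0.70 ± 0.33), a log2 difference that was 0.36 without the 20% array and 0.46 without the 10% array. The control array read 489.9 for Fos, above all 4 restricted arrays. Egr1 had 329.3 and 358.2 against 393.8 and 348.1 (0.11 ± 0.14) and overlapped. The list did not lie on one side: of 14 measured genes 2 did not overlap and were higher and 4 were lower (18% and 16.2% of all named genes), among them Dusp6 (677.1 and 829.5 mild, 613.3 and 648.2 moderate) and Nr4a2 (96.5 and 83.3 against 66 and 70.8), and the median was 0.05.

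In the clock list of 17 measured genes, Npas2, which takes the place of Clock in its complex with Bmal1, had 99.2 and 130.2 mild and 194.8 and 178.7 moderate (0.72 ± 0.22). The gene stood alone on its list in being separated, where 1.93% of all named genes were separated higher. Dbp, an output of the clock, differed by 0.0008 with a 95% interval of -0.34 to 0.34, and Nr1d2, a nuclear receptor of the clock, by 0.08 (-0.18 to 0.34). A second Nr1d2 probe set had 188 and 133.3 mild and 237.2 and 214.1 moderate. The median of the list was 0.001.

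The lists of energy and lipid metabolism had medians near 0, although single members differed more. In the list of oxidative phosphorylation, 69 genes were measured and 0 were separated (1.93% of all named genes were higher and 1.58% lower). The log2 differences ran from -0.34 (Ndufa5) to 0.32 with a median of 0.02. For the 39 cytosolic ribosomal protein genes they ran from -0.13 to 0.23 (Rpl21) with a median of -0.02. Both lists are bright, and both centred on no difference. In fatty acid oxidation and ketone use, Pdk4 was the only separated gene of 22 and the median was -0.07. Oxct1, which lets neurons burn ketone bodies, had 701 and 718.3 mild and 819.3 and 802.6 moderate (0.19 ± 0.11), and Cpt1a, which admits fatty acids to mitochondria, 397.7 and 539 against 446.1 and 389.

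Of the 15 genes of fatty acid synthesis and desaturation none was separated, and Elovl6, an elongase, had 673.5 and 624.2 against 595.1 and 495.4 (-0.26 ± 0.13), with a second probe set at 0.10. In cholesterol synthesis 1 of 17 was separated, Hsd17b7 (47.2 and 43.5 mild, 92.1 and 68.1 moderate), at low signals. Over all named genes 1.93% were separated higher and 1.58% lower. Cyp51, a sterol demethylase, differed by -0.10. The log2 differences of this list ran from -1.29, for a gene whose sides overlapped, to 0.81 (Hsd17b7), with a median of -0.007. Pdk1, a pyruvate dehydrogenase kinase of the glycolysis and hypoxia lists, had 148 and 147.8 against 203 and 217.1 (0.51 ± 0.18), but its other probe set was separated in the opposite direction (-0.65 ± 0.25), so the gene has no settled direction. Nqo1, an antioxidant enzyme, had 155.8 and 152 against 225.3 and 226.5 (0.55 ± 0.17), in a list of 25 of which 0 were separated.

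In the lists of protein quality control none of the 33 chaperones, 20 genes of the unfolded protein response or 21 genes of autophagy and lysosomes was separated. Over all named genes 1.93% were separated higher and 1.58% lower. Chordc1, a partner of the chaperone Hsp90, had 379.4 and 371.6 mild and 501.6 and 471.5 moderate (0.37 ± 0.13), and Map1lc3a, a coat protein of autophagosomes, 1031.9 and 963.5 against 922.4 and 720.2 (-0.29 ± 0.14). In the list of thyroid hormone signalling, with 0 of 10 separated, Slco1c1, the thyroxine transporter of brain capillaries, had 263.8 and 353 against 247 and 204.3 (-0.44 ± 0.19, and -0.23 without the 10% array). The medians of these 4 lists ran from -0.02 to 0.01.

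Genes that the study names for brain or for several tissues were near level, other than Sult1a1 and Fos, whose probe set the study lists without a gene name. Of 22 listed, 18 were measured, and Hsp90aa1, Cd36 and Akr1c14 were not among these. Nampt, which makes the coenzyme NAD, differed by -0.05 on the log2 scale (95% interval -0.57 to 0.46), Glul, the glutamine synthetase of astrocytes, by 0.07 (-0.17 to 0.32) and S1pr1, a receptor for sphingosine phosphate, by -0.004 (-0.27 to 0.27). Actg1, a cytoplasmic actin, differed by -0.07, and the tubulins Tubb2a and Tubb4b by -0.04 and 0.04. Fads1, a fatty acid desaturase, differed by 0.04, Cmtm6 by 0.10, Fmo1 by 0.08 and Ephx1, an epoxide hydrolase, by 0.30 (-0.30 to 0.91). Nr4a3, an orphan nuclear receptor, had 79.6 and 95.2 against 109.7 and 98.3 (0.25 ± 0.27), with a second probe set at -0.21. Tpm4, a tropomyosin, had 342.9 and 288.7 against 269.6 and 239.7 (-0.31 ± 0.16). For most of these the interval of the probe set used is narrow enough to leave out a 1.5-fold difference, but not for Tpm4 or the dim Fmo1, Cmtm6, Ephx1 and Nr4a3. The study lists other Glul probe sets, which gave 0.11 (-0.59 to 0.82) and 0.15 (-0.12 to 0.41). The former does not leave out such a difference, nor does the second Nr1d2 probe set (0.51, 0.01 to 1.00).

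The makeup of the tissue by its markers was close to level for most lists, other than the pituitary and blood markers above. The medians of the lists for hypothalamic neurons (12 measured, 0.03), general neurons (11, -0.02), astrocytes (11, 0.03), microglia (10, 0.02), endothelial cells (11, -0.005) and meningeal cells (11, -0.01) lay within 0.03 of 0 on the log2 scale. The myelin list lay higher, at 0.11, with 3 of 11 genes not overlapping and higher and 0 lower (18% and 16.2% of all named genes). Without the 30% array its median was 0.02, and without the 10% array 0.06. Its summed signals were 25648 and 25946 mild and 26321 and 27905 moderate. In the striatal list 1 gene of 8 was separated higher (1.93% of all named genes were), the dopamine receptor Drd1 (55.7 and 63.7 against 82.6 and 105.3). The list had a median of 0.17, while Penk on it was lower. That median was -0.09 with the filter at the 75th percentile and 0.005 without the 10% array, so the list has no settled direction.

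Single markers went separate ways within their lists. Pecam1, an adhesion molecule of endothelium, had 85.6 and 122.1 mild and 59.5 and 66.3 moderate (-0.70 ± 0.32), and Notch3, a receptor of vascular mural cells, 77.9 and 46.5 against 106.7 and 91.9 (0.72 ± 0.35, and 0.35 without the 10% array). Tmem119 of microglia had 127.5 and 111.6 against 166.2 and 171.2 (0.50 ± 0.21), and Nefl, a neurofilament chain, 1039.7 and 836.2 against 1088.8 and 1668.1 (0.53 ± 0.20, and 0.22 without the 30% array), although the second Nefl probe set gave -0.03. The median of the choroid plexus list was 0.09, of the oligodendrocyte precursor list -0.07, and Pdgfra of the latter had 747.5 and 906.2 against 746.5 and 562.4.

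**Figure D5:**
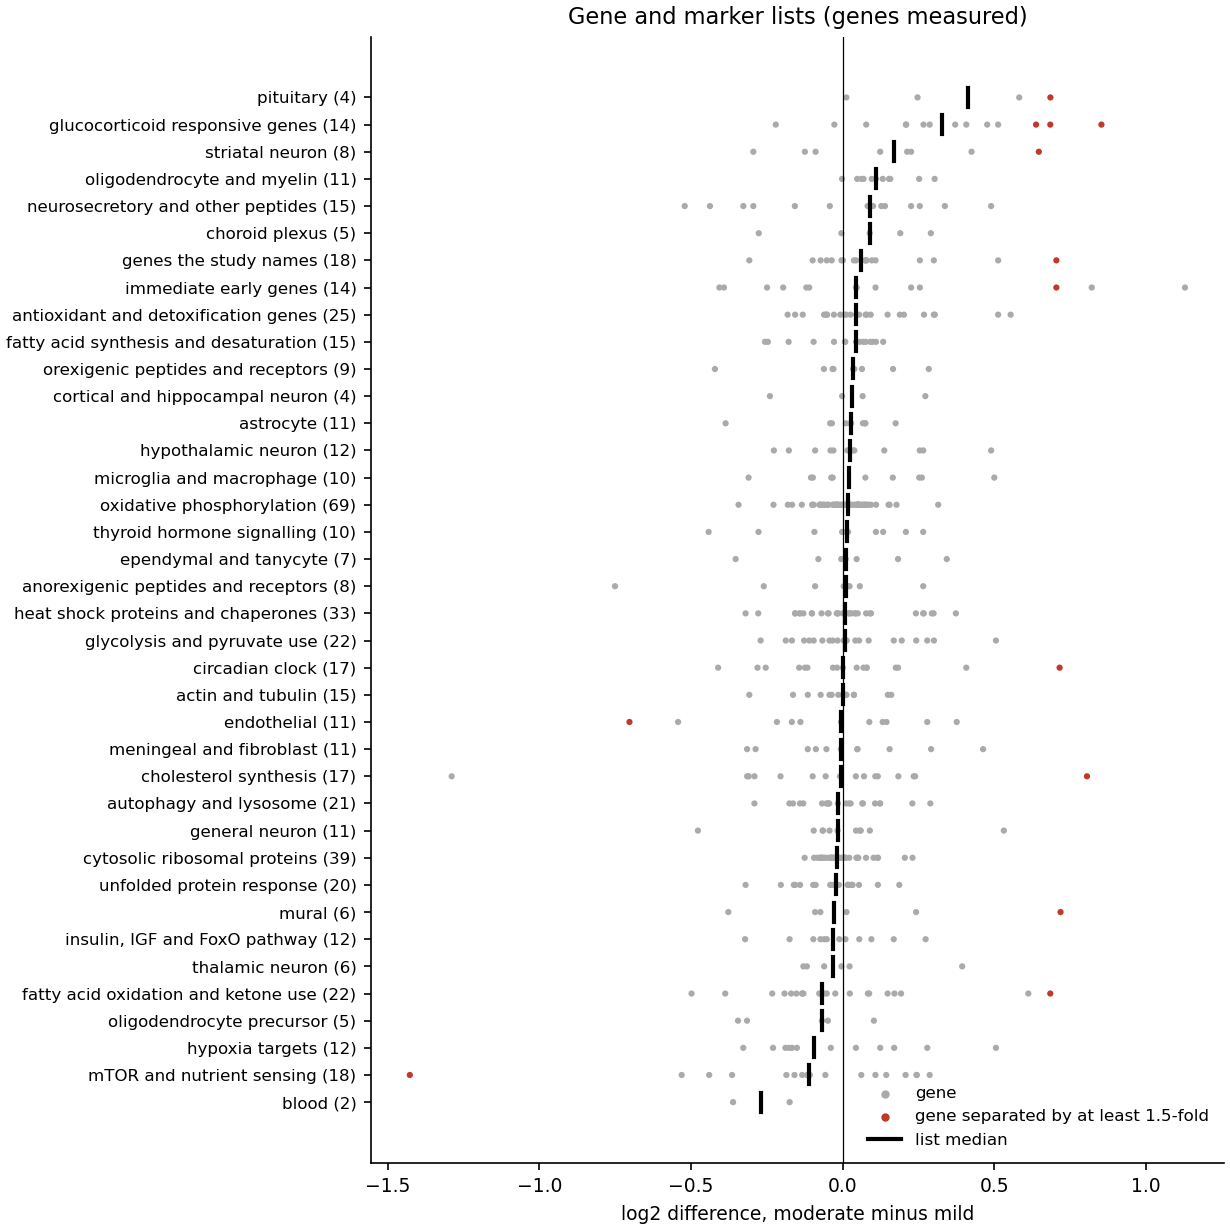
Log2 difference (moderate minus mild) of each measured gene by list, with the number of genes measured in parentheses, a black bar at the list median and red points for separated genes. The lists of pituitary markers (0.41) and glucocorticoid responsive genes (0.33) have the highest medians and the 2 blood markers (-0.27) the lowest. With an array left out, the log2 medians ranged from 0.17 to 0.36 for pituitary, 0.13 to 0.52 for glucocorticoid and -0.52 to -0.01 for blood.

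Some genes kept one order over all 4 levels. Signals ascended from 5 to 10 to 20 to 30% CR for 369 of the 9471 named genes (3.9%) and descended for 339 (3.58%), with 1 array per level. Arrays in random order also give such runs, so the order alone does not show a response to the level. Ctns, the lysosomal cystine transporter, had 64.7, 188.1, 218.8 and 270.1, and Sox6, a transcription factor of interneurons and glial precursors, had 51.9, 153.6, 169.3 and 182.5. Fbxl15 had 31.3, 85.1, 98.3 and 105.6 and Epha10, an ephrin receptor, 37.9, 93.8, 97.9 and 127.3. In these 4 of the 5 ascending genes named, the widest step lay between the 2 mild arrays, and without the 5% array the log2 difference of the sides was 0.20 (Sox6) to 0.37 (Ctns). In the other, the aminoacylase gene Acy3 (39, 40, 82.4 and 127.6), it lay between the 10% and the 20% array. In the descending direction Msmp had 133.2, 103.8, 92.8 and 21.3 and Ccm2l 111, 77.1, 70.1 and 29.3, and for both the widest step lay between the 2 moderate arrays. With all 4 arrays the log2 difference of the sides was -1.40 for Msmp and -1.03 for Ccm2l, and without the 30% array it was -0.34 and -0.40.

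Where a named gene had more than 1 probe set, the others often did not share its sign. Of the 90 named genes, 11 had another probe set that passed the filter, and of those 12 probe sets 4 had the same sign. Cbln1, a synaptic organiser, had 299.2 and 266 against 412.1 and 333.5 on its brighter probe set (0.39 ± 0.16) and -0.04 on the other, and Cldn11, a junction protein of myelin, 0.13 and -0.48.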

How the data were processed

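Affymetrix arrays of pooled RNA (5 rats each) were analysed for 4 groups at 1 week. The authors deposited signal intensities made with MAS5, linear and with 1 column per array. MAS5, named in the submitters' processing notes, subtracts mismatch from perfect-match signal and scales each array, which makes the log2 values and folds of dim probe sets uncertain. Detection calls were not used here. The 1 month columns were not used because their rows do not follow the probe set identifiers, and the 1 week control array is outside the comparison.

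Values were log2-transformed with no pseudocount, 2 signals of 0 having been set to 0.1. Probe sets whose mean log2 signal over the 4 arrays was above the 50th percentile were kept, less the control probe sets (57 in the table). The contrast was fitted with limma 3.58.1 in R 4.3.3 (lmFit, eBayes with an intensity trend, 2 residual degrees of freedom, prior degrees of freedom 6.13), with Benjamini-Hochberg adjustment over all probe sets kept. The number of arrays limits the precision. The code was tested on simulated data. Python 3.11.15, pandas 2.3.3 and matplotlib 3.10.9 were used for sequences and figures.

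Of 31099 probe sets, 20832 have 1 symbol in the platform annotation, 436 several and 9831 none. By Entrez identifier, 20764 were found in the RefSeq gene table and 0 symbols were updated. A gene is represented by its brightest probe set. Named genes were the 12 with the widest gap in each direction, up to 3 separated members per list and direction (or the largest difference without overlap), the 5 ascending and 5 descending most over all levels, genes the study names and feeding peptides. Provisional names were left out. The comparison, the 38 lists (702 genes) and the tests were chosen with earlier results of these data known, so no list was tested.

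Alternatives were median, quantile and cyclic loess scaling, a pseudocount of 15.9 (the 20th percentile of signals), no filter or the 75th percentile, eBayes without a trend or robust, a slope over the level, 2-fold or no minimum fold, the mean of a gene's probe sets, and leaving out each array.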

Additional observations from a re-analysis of the deposited data

How the results depend on the processing

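Of 1017 values of the 90 named genes under alternatives, 984 kept their direction and their side of the threshold, 10 passed it where the reported value did not (8 with an array left out and 2 of Fam168b under the settings named next), and 23 changed sign. The number of probe sets that passed the test was 0, and 1 after cyclic loess normalization and with robust eBayes. It ranged from 0 to 12 when an array was left out, which leaves 1 residual degree of freedom and a lone array assumed to vary like the pair. Separated probe sets numbered 349 higher and 326 lower. They numbered 230 and 195 with the pseudocount, 2051 and 2771 with no filter, 37 and 21 with the filter at the 75th percentile, 56 and 53 at 2-fold and 2695 and 2595 with no minimum fold. Without one array they ranged from 526 to 704 higher and from 601 to 817 lower, as 3 arrays separate more easily than 4. The cause of the other shifts was not tested.

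The changes of sign were of genes near 0: S1pr1 was 0.014 after median centring and Dbp -0.002 after cyclic loess. With an array left out, the log2 differences ranged from -0.030 to 0.107 for Pmch, -0.032 to 0.107 for Tubb4b, -0.035 to 0.123 for Fads1, -0.204 to 0.356 for Fmo1, -0.126 to 0.054 for Tubb2a, -0.203 to 0.142 for Hcrt, -0.114 to 0.106 for S1pr1, -0.062 to 0.064 for Dbp, -0.243 to 0.138 for Nampt, -0.023 to 0.215 for Cmtm6, -0.288 to 0.319 for Crh, -0.155 to 0.031 for Npy, -0.019 to 0.168 for Glul. Of 418 list medians under alternatives, 341 moved by less than their spread and 77 by more. No paired analysis was possible because the labels carry no replicate numbers and each side holds 2 different restriction levels.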
